A study of Caenorhabditis elegans with 2 samples.

Results

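The histone genes examined here are the 72 protein-coding genes of the Caenorhabditis elegans genome whose name starts with his-, out of 19973 protein-coding genes on 6 nuclear chromosomes. They were taken by name from the Ensembl annotation of WBcel235, and their promoters were searched for peaks of the T-box transcription factor TBX-2. By product name, 17 encode H2A, 16 encode H2B, 15 encode H3, 16 encode H4, 5 encode the variant H3.3, 1 encodes the linker histone H1 (his-24), and 2 (his-39 and his-73) are listed only as holding a histone domain. The binding data come from whole hermaphrodite worms of strain OP159, whose genotype is unc-119(ed3) III; wgIs159. The wgIs159 insertion makes TBX-2 with a GFP-FLAG tag at its C terminus, and the tagged protein was precipitated with an antibody against GFP, per the sample descriptions; the antibody field of the labels names tbx-2, the tagged protein. The larvae were in the first larval stage (L1), 6 h after synchronisation by bleaching and starvation. The group holds 2 biological replicates, both of this strain, and the series has no second condition, so nothing below compares conditions and no test was run. The tagged copy is a transgene, and in whole animals all cell types are mixed, so a peak does not say in which cells the protein was bound. Whether the replicates came from separate cultures is not stated beyond their numbers.

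Histones are the proteins around which DNA is wrapped. The core histones H2A, H2B, H3 and H4 form the nucleosome, and H1 binds the DNA that joins nucleosomes. Most core histone genes are copied many times, lie in clusters and are transcribed mainly while DNA replicates, whereas H3.3 genes are transcribed outside replication too and supply H3 to transcribed chromatin. TBX-2 is best known in the worm for its part in making pharyngeal muscle.

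Each deposited list gives regions with a summit, the base with the strongest signal, and a signal that is the authors' own value for the region on a scale that is not stated. It is used here only to describe and rank regions within a list. A list of 4384 peaks had passed the irreproducible discovery rate (IDR) step, which scores how well the ranking of regions repeats between replicates. The pooled list and the list of each replicate held 30000 regions each, peaks and background together. A promoter is the stretch from 1000 bp upstream to 200 bp downstream of a transcript start. The lists hold no read counts, so depth is unknown, and each interval given is a 95% exact (Clopper-Pearson) interval that covers the counting of genes or gene pairs only. Neighbouring histone genes share summits, so the genes are not independent and such intervals are too narrow.

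Of the 72 histone genes, 16 had an IDR summit in the promoter (22.2%, interval 13.3 to 33.6), against 15.6% of all protein-coding genes. They were his-3, his-4, his-24, his-31, his-32, his-35, his-37, his-41, his-42, his-59, his-60, his-61, his-62, his-67, his-68 and his-72. These genes shared 11 distinct summits, because 6 of the summits were shared by several histone genes. The background lies inside the interval, so the share of histone genes was near that of all genes. In the longer lists the share was below the background, but not beyond its interval. A pooled region lay in the promoters of 25 histone genes (34.7%, interval 23.9 to 46.9), against 39.3% of all genes. Replicate 1 placed a region in 24 (33.3%) against 42.0% of all genes, and replicate 2 in 25 (34.7%) against 40.3%. The promoters of 46 histone genes held no region of any list.

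Many histone genes lie in stretches of sequence that recur elsewhere in the genome, and reads from such stretches cannot be placed by sequence alone. As a measure of this, the percentage of 36-base words in a promoter that occur at a single place in the genome, on either strand, was computed. Its median was 100% over all protein-coding genes, 23.3% over histone genes, and 87.4% over the 16 histone genes with an IDR summit, of which the lowest was his-3 at 66.4%. In 20 histone promoters it was 0%. The boundaries of 25% and 75% used next were chosen after these values were seen.

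In the 38 histone genes with at most 25% unique words, no promoter held an IDR summit (0 of 38, interval up to 9.25%) or a pooled region (0 of 38). Among all 319 protein-coding genes in that class, 0.627% had an IDR summit and 0.940% a pooled region. In the 12 histone genes with 25 to 75% unique words, 3 had an IDR summit (25%, interval 5.49 to 57.2) against 7.26% of all genes in the class, and 6 had a pooled region (50%) against 21.8%. In the 22 histone genes with over 75% unique words, 13 had an IDR summit (59.1%, interval 36.4 to 79.3) against 16.3% of all genes in the class, and 19 had a pooled region (86.4%, interval 65.1 to 97.1) against 40.9%. Both intervals lie above the background of their class. They are too narrow, however, because the genes of a divergent pair share 1 summit. The class boundaries were also chosen after the values were seen, so this comparison is a description. The near-average share over all 72 genes was thus the sum of unlike classes, with 0 of 38, 3 of 12 and 13 of 22 genes. With words of 50 bases the IDR counts were 0 of 36, 2 of 12 and 14 of 24. The repeat content of the promoter moved with the presence of regions, and its part in the result was not tested. Whether the peak caller used reads that fit several places is not given in the sources used here.

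**Figure D1:**
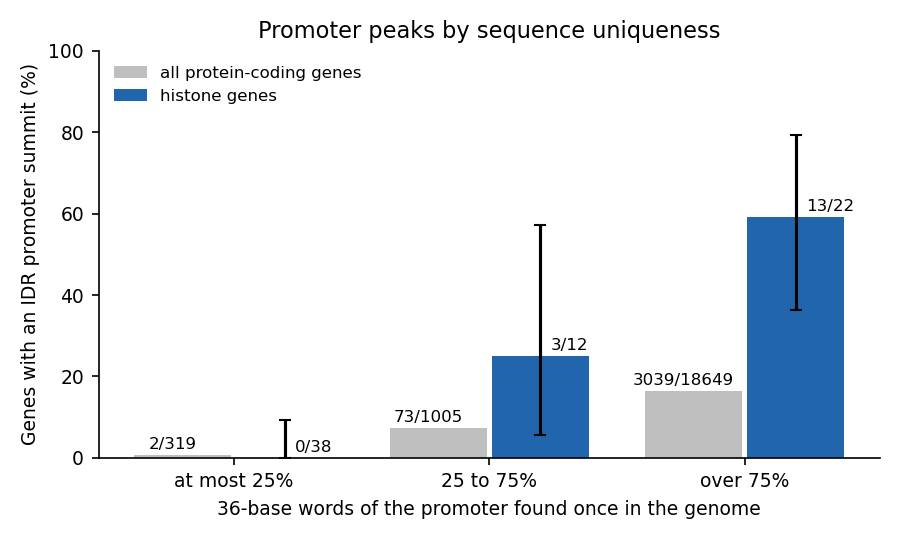
Percentage of genes with an IDR promoter summit (vertical axis) in 3 classes of promoter, by the percentage of 36-base words found at a single place in the genome (horizontal axis). Grey bars are all protein-coding genes, blue bars are histone genes with 95% exact intervals, and the fractions are genes with a summit over genes in the class; the blue bars read 0%, 25% and 59.1%, the grey bars 0.627%, 7.26% and 16.3%.

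Of the 72 histone genes, 62 (86.1%) sit in 31 divergent pairs, in which an H2A and an H2B gene, or an H3 and an H4 gene, or in 1 case an H4 and an H2A gene, start back to back. Their annotated starts are 227 to 368 bp apart, so a single summit can lie in both promoters. For 65 of the 72 genes the annotated start is the first base of the start codon, so that the distances below are counted from there, and for 7 (his-24, his-35, his-37, his-41, his-57, his-71 and his-74) it lies elsewhere. For 11 pairs the central bases between the starts occur at 1 place in the genome, and 79.4 to 100% of the words between the starts are unique. Of these, 6 had an IDR summit between the starts (54.5%, interval 23.4 to 83.3), and 9 had a region there in the pooled list, in replicate 1 and in replicate 2. For the other 20 pairs, with 40 genes, the central bases occur in 2 to 4 exact copies and at most 16.1% of the words are unique. None of these 20 had a region between the starts in the IDR list, the pooled list or either replicate (0 of 20, interval up to 16.8%). The only region in the promoter of any of their 40 genes was a weak one 953 bp upstream of his-46 in replicate 2 (signal 10.5, rank 21370). The share was not computed for divergent pairs of other genes, so the counts of pairs have no background beside them.

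**Figure D2:**
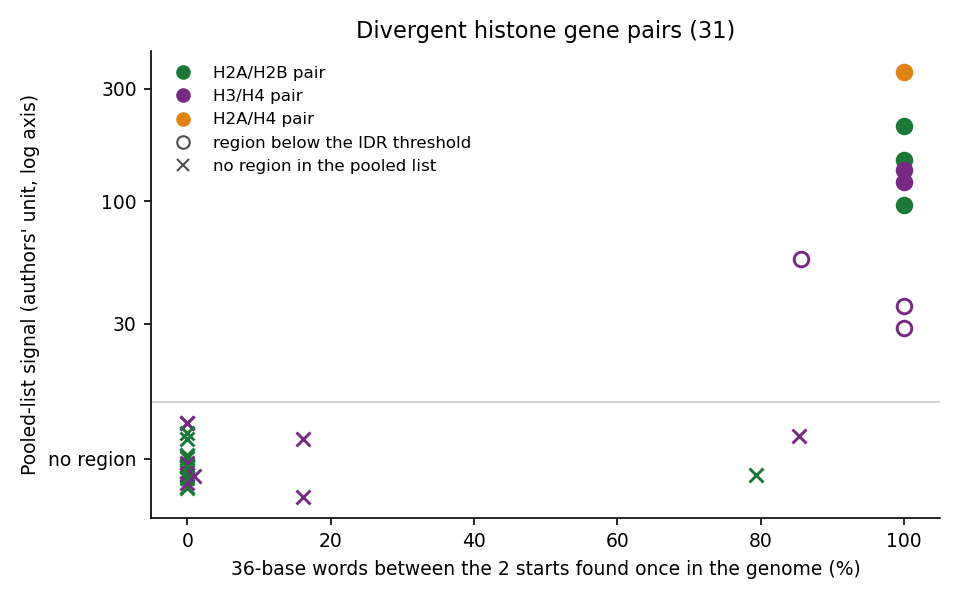
Pooled-list signal between the starts of each of the 31 divergent pairs (vertical log axis, authors' unit) against the percentage of 36-base words there found at a single place in the genome (horizontal axis), coloured by the histones encoded. Filled circles are in the IDR list and open circles are not; crosses below the grey line had no pooled region and are spread vertically only to keep them apart. All 20 pairs at or under 16.1% unique are crosses, as are 2 of the 11 at 79.4% or more.

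Sequences of some single-copy and some repeated pairs are printed here for reading side by side, and they were not aligned. The following are taken from RefSeq's WBcel235 (ce11) genome, plus strand, 5′ to 3′, within 75 bp of the summit and at least 50 bp from an annotated start. They were chosen to set 4 single-copy pairs with an IDR summit (2 of H2A/H2B and 2 of H3/H4) beside 1 single-copy pair below the threshold and 2 repeated pairs. Capitals mark TATAAA (the TATA box), the CCAAT element, the word GAGAGA or the word GGGGACA, each read on either strand. The windows lie at chrIV:7486307-7486457 (his-61/his-62, H2A/H2B), chrV:16040593-16040743 (his-3/his-4, H2A/H2B), chrIV:7488042-7488190 (his-59/his-60, H3/H4), chrIV:8334068-8334218 (his-31/his-32, H3/H4) and chrV:16042333-16042450 (his-2/his-1, H3/H4, below the threshold). The repeated windows, centred between the starts, lie at chrII:13823436-13823586 (his-10/his-9, H3/H4, 3 exact copies in the genome) and chrV:8850242-8850392 (his-51/his-52, H2A/H2B, 4 exact copies).
his-61/his-62: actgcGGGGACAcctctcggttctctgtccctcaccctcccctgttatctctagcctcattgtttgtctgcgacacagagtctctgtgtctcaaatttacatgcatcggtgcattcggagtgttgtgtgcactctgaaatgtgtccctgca
his-3/his-4: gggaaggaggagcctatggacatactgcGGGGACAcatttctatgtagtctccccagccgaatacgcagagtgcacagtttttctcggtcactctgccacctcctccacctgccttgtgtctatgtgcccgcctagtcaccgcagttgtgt
his-59/his-60: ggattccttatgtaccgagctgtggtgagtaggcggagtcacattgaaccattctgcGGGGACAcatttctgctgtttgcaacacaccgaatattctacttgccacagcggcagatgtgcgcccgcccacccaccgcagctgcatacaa
his-31/his-32: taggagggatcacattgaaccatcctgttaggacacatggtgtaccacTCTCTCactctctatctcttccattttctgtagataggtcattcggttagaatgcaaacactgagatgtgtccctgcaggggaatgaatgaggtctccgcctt
his-2/his-1 (pooled): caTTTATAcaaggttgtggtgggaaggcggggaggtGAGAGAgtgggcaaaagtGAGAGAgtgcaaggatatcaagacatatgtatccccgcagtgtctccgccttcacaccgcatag
his-10/his-9 (midpoint): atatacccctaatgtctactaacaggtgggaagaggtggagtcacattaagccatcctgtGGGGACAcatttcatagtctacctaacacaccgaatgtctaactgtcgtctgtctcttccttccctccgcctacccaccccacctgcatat
his-51/his-52 (midpoint): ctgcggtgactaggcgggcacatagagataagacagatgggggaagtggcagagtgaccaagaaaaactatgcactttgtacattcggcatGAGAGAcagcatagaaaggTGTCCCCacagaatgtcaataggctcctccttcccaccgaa

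The word GGGGACA stands out in several of these windows, though not in those of his-31/his-32 and his-2/his-1. It was picked after the windows had been read, so its counts are a description. It lies between the starts in 7 of the 11 single-copy pairs and in 23 of all 31 pairs (74.2%). Within 150 bp of the summit, it lay at 7 of the 11 histone summits (63.6%), at 2.58% of all IDR summits, at 2.45% of those in promoters, and in 1.54% of equally long stretches upstream of all protein-coding genes. The repeated pair his-10/his-9 carries the word too. No list has a region there, but its words between the starts are 0% unique, so this is no measure of binding. Among single-copy pairs, his-8/his-7 holds the word between its starts and had no region there in any list. The pair his-35/his-41, whose window is not printed, had an IDR summit (signal 209) and no copy of the word between its starts. Of the other words searched, TATAAA, the TATA box, lay near 6 of the 11 histone summits (54.5%), against 27.8% of all promoter summits and 39.6% of the stretches upstream of all genes. CCAAT, a common promoter element, lay near 7 of 11 (63.6%), against 41.1% and 45.3% of the same backgrounds, and TTCCCGC, a form of the E2F site, near 2 of 11 (18.2%), against 5.51% and 3.36%. GAGAGA lay near 4 of 11 (36.4%), below the 43.0% of promoter summits and above the 21.6% of upstream stretches. With 11 summits the intervals are wide, from 23.4 to 83.3% for TATAAA. The T-box word GGTGTGA lay near 0 of the 11 histone summits (interval up to 28.5%) against 2.21% of all promoter summits and 2.30% of upstream stretches. It does occur, with 1 copy each, between the starts of his-6/his-5, his-2/his-1 and his-38/his-40, the 3 single-copy pairs with a pooled region and no IDR summit, and of 3 repeated H3/H4 pairs.

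H2A and H2B pair with each other in the nucleosome, and 3 of the 4 single-copy H2A/H2B pairs had an IDR summit between their starts. At his-35/his-41 on chromosome V (summit 9545479, in a promoter also of C50F4.6) the signal was 209, with 74.6 in replicate 1 and 133 in replicate 2. At his-61/his-62 on chromosome IV (summit 7486382) it was 149, with 69 in replicate 1 and 83.2 in replicate 2. At his-3/his-4 on chromosome V (summit 16040668) it was 95.9, with 32.1 in replicate 1 and 56.5 in replicate 2. In both replicates his-35/his-41 was highest and his-3/his-4 lowest. A non-coding RNA gene, T10C6.19, begins or ends 61 bp from the his-3/his-4 summit. The other single-copy H2A/H2B pair, his-8/his-7, with 79.4% unique words between its starts, had no region there in any list.

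H3 and H4 form the core on which the nucleosome is built. Of the 6 single-copy H3/H4 pairs, 2 had an IDR summit between their starts (33.3%, interval 4.33 to 77.7). This interval overlaps that of the H2A/H2B pairs widely, so the pairs are too few to separate the classes. At his-59/his-60 on chromosome IV (summit 7488115) the signal was 136, with 50.6 in replicate 1 and 81.4 in replicate 2. At his-31/his-32 on chromosome IV (summit 8334143) it was 121, with 58.3 in replicate 1 and 64.9 in replicate 2. The replicates put these in opposite orders, so they do not differ beyond the replicate spread. The next 3 pairs had regions under the IDR threshold, whose lowest signal is 76.8. At his-6/his-5 the pooled signal was 56.4 (rank 5914 of 30000), with 24.6 and 30.1 in replicates 1 and 2. At his-2/his-1 it was 35.6 (rank 9099), with 14.3 and 19.4, and at his-38/his-40 it was 28.8 (rank 11163), with 12.1 and 13.8. The order of these 3 was the same in both replicates, and all 3 lay below both called H3/H4 pairs in each replicate. The last, his-63/his-64, with 85.4% unique words, had no region.

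H4 is also encoded by his-37 on chromosome V, which is in no divergent pair and had the strongest histone peak. Its summit at 9547022, 83 bp upstream of the start, had a signal of 867 and rank 67 of 4384. Replicate 1 gave 324 (rank 72) and replicate 2 gave 542 (rank 61), more than at any other histone gene in both. It lies in the same locus as his-35/his-41, and all 3 genes of that locus had a summit. The stretch around it, chrV:9546947-9547055 on the plus strand, is printed because it holds the strongest summit, with GGGGACA, read from the other strand, in capitals.
his-37: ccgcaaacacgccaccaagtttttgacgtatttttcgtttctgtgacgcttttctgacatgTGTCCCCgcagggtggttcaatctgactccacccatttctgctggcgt

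The pair his-67/his-68 on chromosome I joins an H4 and an H2A gene and had the next strongest signal, 354 (rank 590). Replicate 1 gave 134 and replicate 2 gave 221, second to his-37 in each. Its summit also lies in a promoter of alg-5, which encodes an Argonaute protein. The H3 gene his-42, at the end of the chromosome II cluster, had a summit 885 bp upstream (signal 85, rank 3961). Replicate 2 gave 55.0 there, and replicate 1 had no region within 100 bp. The strongest region that replicate 1 placed in this promoter lay 626 bp upstream with a signal of 14.2. A matching region at the his-42 summit was thus listed in replicate 2 only, and the summit lies 91 bp from the snRNA gene C47F8.9.

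Linker histone H1 is represented by his-24 on chromosome X. Its summit at 14490079, 15 bp upstream of the start, had a signal of 221, with 77.3 in replicate 1 and 147 in replicate 2. It lies inside the annotated non-coding RNA M163.19. Only his-37 and his-67/his-68 were higher among the histone sites, in each replicate as in the pooled data.

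All 5 H3.3 genes have over 75% unique words in their promoters, and 1 had an IDR summit (20.0%, interval 0.505 to 71.6). The share over all protein-coding genes of that class was 16.3%, inside the interval. The H3.3 gene with an IDR summit was his-72 on chromosome III, which encodes H3.3 itself, with a pair of summits. The summit 123 bp upstream had a signal of 139.5, with 43.0 in replicate 1 and 113 in replicate 2. The summit 669 bp upstream, in a promoter also of the proteasome gene rpt-6, had 81.6, with 54.4 in replicate 1 and 37.6 in replicate 2. The replicates ranked the summits of his-72 in opposite orders. The other gene for H3.3 itself, his-71 on chromosome X, had a pooled region 458 bp upstream (signal 48.8, rank 6800), with 23.5 in replicate 1 and 25.9 in replicate 2, under the threshold. The H3.3-like gene his-74 had a weak one (19.7, rank 17195), with 9.51 and 12.8 as the strongest promoter regions of replicates 1 and 2, the first at another place. In the promoters of his-69 and his-70, which are 100% and 87.7% unique, no list had a region. The proximal window of his-72, chrIII:12369100-12369248 on the plus strand, is printed beside those of the H2A, H2B, H3 and H4 genes. It carries CCAAT (read from the other strand, in capitals) and no GGGGACA. It also holds TTCCCGC, read from the other strand and left in small letters.
his-72: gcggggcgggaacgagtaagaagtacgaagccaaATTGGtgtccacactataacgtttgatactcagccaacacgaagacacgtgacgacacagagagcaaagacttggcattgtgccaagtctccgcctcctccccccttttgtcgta

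**Figure D3:**
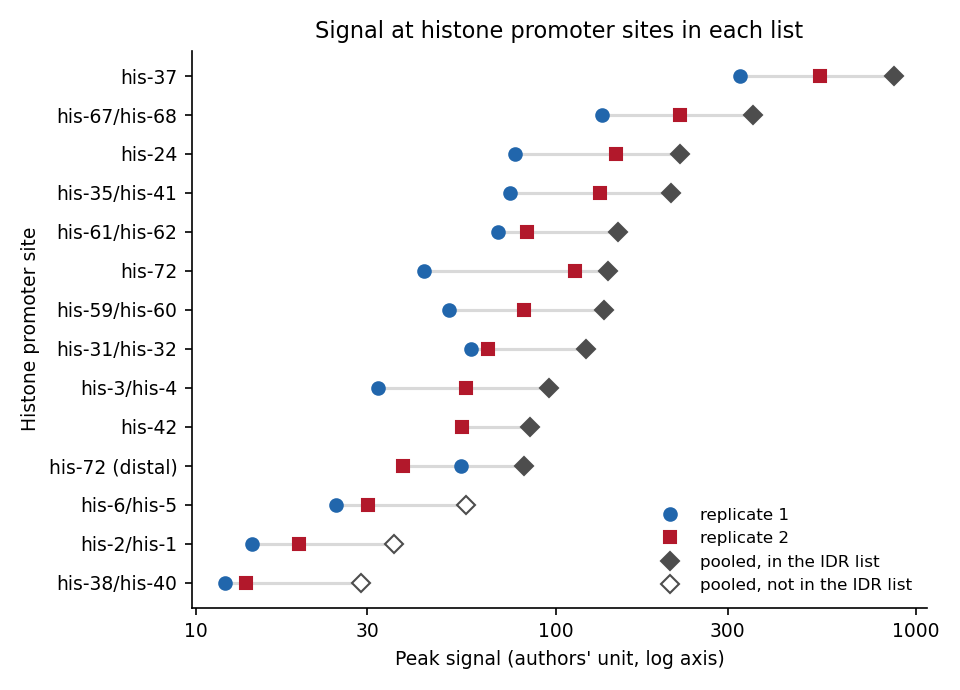
Peak signal (horizontal log axis, authors' unit) at the 11 histone IDR summits and at the 3 divergent pairs with a pooled region below the IDR threshold, for replicate 1 (circles), replicate 2 (squares) and the pooled data (diamonds, filled where in the IDR list). Values run from 867 at his-37 to 28.8 at his-38/his-40 in the pooled data; replicate 2 exceeds replicate 1 everywhere except at the distal his-72 summit, and his-42 has no matched replicate 1 region.

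Against all promoter summits, the histone ones were of ordinary strength. Their median signal was 139.5, against 162 over the 2487 IDR summits in promoters, and 5 of the 11 were among the 2192 strongest of the IDR list. The list of replicate 2 held all 11 within 100 bp, and that of replicate 1 held 10, without his-42. Among the 4384 strongest regions of each replicate, 9 were found in both. Since both replicates went into the IDR list, this is a description and no test of it. Across the 10 matched in both, the ratio of replicate 2 to replicate 1 signal had a median of 1.66 and ran from 0.690 to 2.62.

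Most summits lay close to the genes. The median distance from a histone summit to the histone start was 153 bp upstream, against 243 bp for all promoter summits. A shared summit counts once per gene here, and between paired starts the short spacing limits the distance. The contrast therefore does not show closer binding at histone genes. In the 6 pairs with an IDR summit, it lay 1 to 67 bp from the midpoint between the starts. The pooled summits of his-61/his-62 and his-31/his-32 were within 1 bp of it. For his-31/his-32 the replicate summits lay 1 and 4 bp off, and for his-61/his-62 they lay 14 and 40 bp off, in replicates 1 and 2. The pooled summits of his-35/his-41 and his-67/his-68 lay 67 and 65 bp off, with 82 and 75 bp in replicate 1 and 67 and 58 bp in replicate 2 on the same side. Of the 11 histone summits 6 (54.5%) lay in promoters of more than 1 histone gene. Of all promoter summits 31.1% lay in promoters of more than 1 protein-coding gene of any kind, a wider measure.

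**Figure D4:**
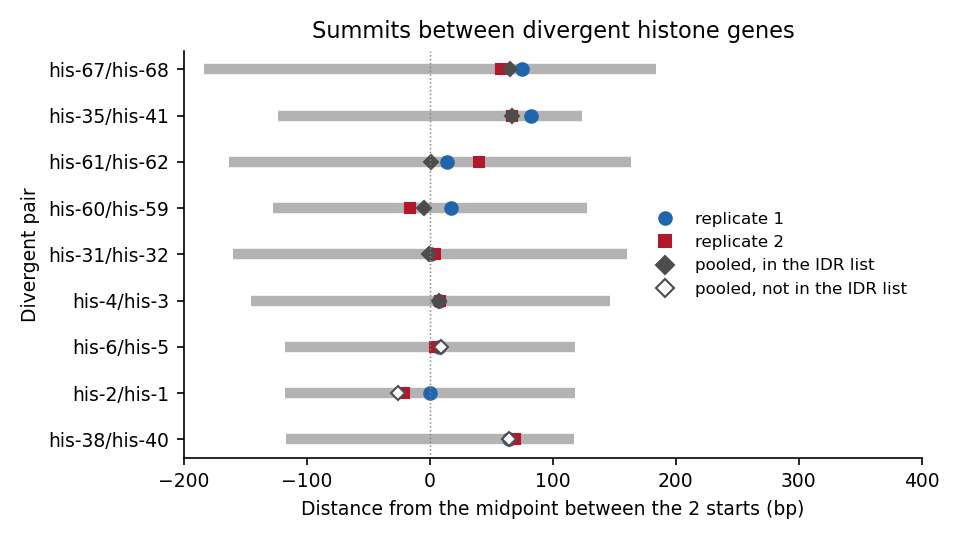
Position of the summit between the starts of the 9 divergent pairs with a pooled region, as distance in bp from the midpoint (horizontal axis), for replicate 1 (circles), replicate 2 (squares) and the pooled data (diamonds, filled where in the IDR list). Grey bars span the distance between the annotated starts; pooled summits lie between -26 bp and 67 bp.

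Clustered and isolated histone genes were compared by distance. With another histone gene within 5000 bp counted as clustered, 67 genes were clustered and 5 (his-24, his-71, his-72, his-73 and his-74) were isolated, in 19 loci. An IDR summit lay in the promoters of 14 of the 67 clustered genes (20.9%, interval 11.9 to 32.6) and of 2 of the 5 isolated ones (40.0%, interval 5.27 to 85.3). The share over all protein-coding genes, 15.6%, lies inside both intervals. A pooled region lay in the promoters of 20 of the 67 (29.9%, interval 19.3 to 42.3) and of 5 of the 5. Over all protein-coding genes the pooled share was 39.3%, inside the interval of the clustered genes. The isolated genes are too few to separate the IDR shares. All 5 isolated genes have over 75% unique words. Among the 17 clustered genes that do as well, 11 had an IDR summit (64.7%, interval 38.3 to 85.8). Of all protein-coding genes over 75% unique, 16.3% had one. The order of the IDR shares thus turned around within this class, but the interval of the clustered genes overlaps that of the isolated genes widely. The order of the pooled shares cannot turn, because all 5 isolated genes had a pooled region.

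The presence of a region differed between loci and, in some loci, between neighbouring genes. On chromosome IV, the locus of his-29 to his-34 holds 3 divergent pairs in 5297 bp, and the single-copy middle pair his-31/his-32 had an IDR summit. The flanking pairs his-29/his-30 and his-33/his-34, whose spacers are exact copies of each other, had no region in any list. In the locus of his-59 to his-62, all 4 genes had one. The largest locus, 13 genes in 10938 bp on chromosome II from his-16 to his-42, had its only IDR summit at his-42, and 19.5% of its words, with flanks of 1000 bp, are unique. On chromosome V, the stretch from his-50 to his-53 is identical over 6661 bp, with 0 mismatches, to that from his-28 to his-19, and neither holds a region of any list. Within the locus of his-1 to his-4, the H2A/H2B pair was in the IDR list and the H3/H4 pair was not. Both of these pairs have 100% unique words between their starts. The remaining members without a described region include his-39, at 81.0% unique with none, and his-73, with a pooled region of signal 15.2 (rank 23477) 817 bp upstream and none in the replicates.

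Histones under other names and genes that handle histones were examined beside the his- genes. These lists were chosen with earlier results of these data known, so their shares describe the listed genes only. Of 11 such histones, 5 had an IDR summit (45.5%, interval 16.7 to 76.6), against the 15.6% of all protein-coding genes. The strongest was at htz-1, which encodes the variant H2A.Z, with a signal of 734 (274 in replicate 1 and 454 in replicate 2), in a promoter shared with wapl-1. The linker histone-like genes with a summit were hil-7 (375, with 136 and 241), hil-3 (147, with 62.5 and 82.4) and hil-1 (83.2). At hil-1, replicate 1 gave 30.6 and replicate 2 had no region inside the promoter window. The hil-1 summit lay at -997 bp from the start (negative is upstream), at the edge of that window. A replicate 2 summit just outside would not have been counted. The gene for the centromeric H3, hcp-3, had 147 (56.0 and 97). Apart from hil-1, the summits lay at -313 to -27 bp from the start. No summit lay at cpar-1, the other centromeric H3 gene, or at hil-2, hil-4, hil-5, hil-6 and hil-8.

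Of 14 genes for histone messenger processing and histone chaperones, 7 had an IDR summit (50%, interval 23.0 to 77), again against 15.6% of all protein-coding genes. This list was chosen in the same way, so its share is a description too. The RbAp-type chaperone gene lin-53 (675, with 268 and 407, shared with nra-2) and the NASP-type chaperone gene nasp-2 (563, with 234 and 331, shared with C50B6.3) had the highest signals. The genes chaf-2 and chaf-1, for subunits of the assembly factor CAF-1, had summits too (249, with 86.9 and 163, shared with Y71G12B.30, and 134, with 48.9 and 84.5). The H3/H4 chaperone genes unc-85, of the ASF1 type, and hira-1 had 205 (68.1 and 135) and 122 (36.2 and 92.0). The gene cdl-1, for the protein that binds the stem-loop of histone messengers, had 164 (64 and 98.6). Replicate 2 was higher than replicate 1 at each of these 7. The summits of nasp-2 and hira-1 lay far upstream, at -981 and -750 bp from the start, and the others at -468 to -141 bp. The remaining 7, nasp-1, asfl-1, rba-1, xnp-1, hmg-3, hmg-4 and spt-16, had none.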

How the data were processed

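Binding of tagged TBX-2 was measured by ChIP-seq in 2 biological replicates of 1 group. Per the labels and the deposited notes, the authors made peak lists for each replicate, for the pooled replicates and after an IDR step, on ce11; the ce10 lists were not used. The signal of each deposited region is the authors' own value, of unstated scale. The significance field deposited by the authors is a −log10 q-value; it is equal for all IDR peaks and was not used to rank. The aligner, peak caller, read length, IDR threshold and the reads behind the control are not given in the sources used here.

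Chromosome lengths and gene models came from Ensembl release 115 (WBcel235, the assembly of ce11), with 29314 protein-coding transcript starts. In Ensembl, 22 of the 72 genes carry the name of an identical gene, so that 50 distinct names occur; RefSeq symbols, matched by WormBase identifier for all 72, were used instead. Summits were assigned to every promoter that holds them and matched between lists within 100 bp. Divergent pairs are neighbours on opposite strands with starts within 1500 bp. Motifs were counted in 301 bp around summits. The 36-base and 50-base words were counted over the whole reference on both strands. Genes named are those with an IDR summit, the H3.3 and H1 genes, those below the threshold with the strongest pooled regions, and the called members of the list of other histone genes; other members were named after their values were seen. The members and lists were chosen with earlier results of these data known. The counting was first tested on simulated regions. Python 3.11.15, numpy 2.4.6, pandas 2.3.3, scipy 1.17.1 and matplotlib 3.10.9 were used. Alternatives were other promoter widths, assignment to the nearest start, overlap in place of summits, the stronger part of the IDR list, each replicate alone, and other distances for matching and clustering.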

Additional observations from a re-analysis of the deposited data

How the results depend on the processing

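Among the recomputed counts, 31 stayed within 1.5 times the main value and 6 did not. With the 2192 strongest IDR peaks, 8 histone genes (7 clustered, 1 isolated) and 5 summits remained, since this list is shorter by construction. With each summit given to the nearest start within 2000 bp, the genes with a peak fell to 10 and the clustered ones to 8, since 1 gene of each divergent pair then loses the shared summit. With 1 replicate's strongest 4384 regions in place of the IDR list, there were 15 to 16 genes, 13 to 14 clustered, and 2 isolated genes and 10 summits with either; without replicate 2, his-42 dropped out. A promoter of 500 bp upstream to 100 bp downstream lost his-42 (15 genes), and one of 2000 bp upstream gained his-1 and his-34 (18 genes). Clustering distances of 2000 and 20000 bp gave the same 14 of 67 and 2 of 5 genes. Restriction to promoters over 75% unique, an alternative chosen after seeing the data, left 13 genes with 36-base and 14 with 50-base words. No paired analysis was possible because there is 1 group and no comparison between groups. Depth is unknown, and in repeated promoters a region could be missing because reads there cannot be placed, which was not tested, so 0 regions there is no measure of binding.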
